A study of Homo sapiens with 2 samples.

Results

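To examine the chromatin at the genes that encode the AP-1 transcription factors, the LDB1 peaks deposited for NB4 cells were collected around 10 genes of the JUN and FOS family, namely JUN, JUNB, JUND, FOS, FOSB, FOSL1, FOSL2, BATF, BATF3 and JDP2. NB4 is a human acute promyelocytic leukemia cell line. A peak was counted for a gene when it overlapped the gene body of GENCODE release 44 extended by 30 kb on each side. All 10 genes were found in the annotation, out of 20033 protein-coding genes on chromosomes 1 to 22, X and Y. Their windows held 9 of the 11046 deposited peaks (0.0815%), and no peak fell in more than 1 window. The genes were selected because the AP-1 motif is frequent at LDB1 peaks, not by a measurement at the genes themselves.

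The peaks came from CUT&Tag, in which an antibody leads a transposase to a chromatin protein and the DNA around it is cut and tagged. The series had 2 samples of NB4. The first was profiled with an antibody against LDB1 and is labelled as LDB1 overexpression, and the second was profiled with IgG and is labelled untreated. There was therefore 1 library per group, antibody and treatment cannot be told apart, and no test between groups was made. Each peak had a position and a length on hg38 and no height, so the depth behind a peak is unknown.

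AP-1 is a dimer of basic leucine zipper proteins. The JUN proteins pair with themselves or with the FOS proteins, FOS proteins need a partner to bind DNA, and the dimers recognise the heptamer TGACTCA or, less often, the cyclic AMP response element TGACGTCA. JUN and FOS are classic immediate early genes, which are transcribed within minutes of a growth or stress signal. BATF, BATF3 and JDP2 lack a transactivation domain of the usual kind and join JUN proteins in dimers that work with other factors or repress transcription. LDB1 does not bind DNA and is brought to it by LMO2 together with GATA factors and TAL1.

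Results showed that 4 of the 10 genes had a peak in the window (40%, Wilson 95% interval 16.8 to 68.7%), compared with 36.7% of all protein-coding genes. The genes with a peak were JUNB, FOSB, FOSL1 and FOSL2. The genes without one were JUN, JUND, FOS, BATF, BATF3 and JDP2. The share in the 10 genes was thus close to the background, and the interval covers counting error in 10 genes only. Among the protein-coding genes whose bodies were as long as those of the family (1830 to 46396 bp), 36.4% had a peak. JUNB, JUND and FOSB lie on chromosome 19, where 50.9% of the protein-coding genes had a peak within 30 kb.

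FOSL1 had 3 peaks, and JUNB, FOSB and FOSL2 had 2 each. Among all protein-coding genes with a peak in the window, 51.6% had 2 or more. The mean number was 0.900 peaks per gene in the family and 0.845 in all protein-coding genes. The peaks of the 4 genes covered 2509 bp at JUNB, 1661 bp at FOSL1, 1059 bp at FOSL2 and 580 bp at FOSB.

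**Figure D1:**
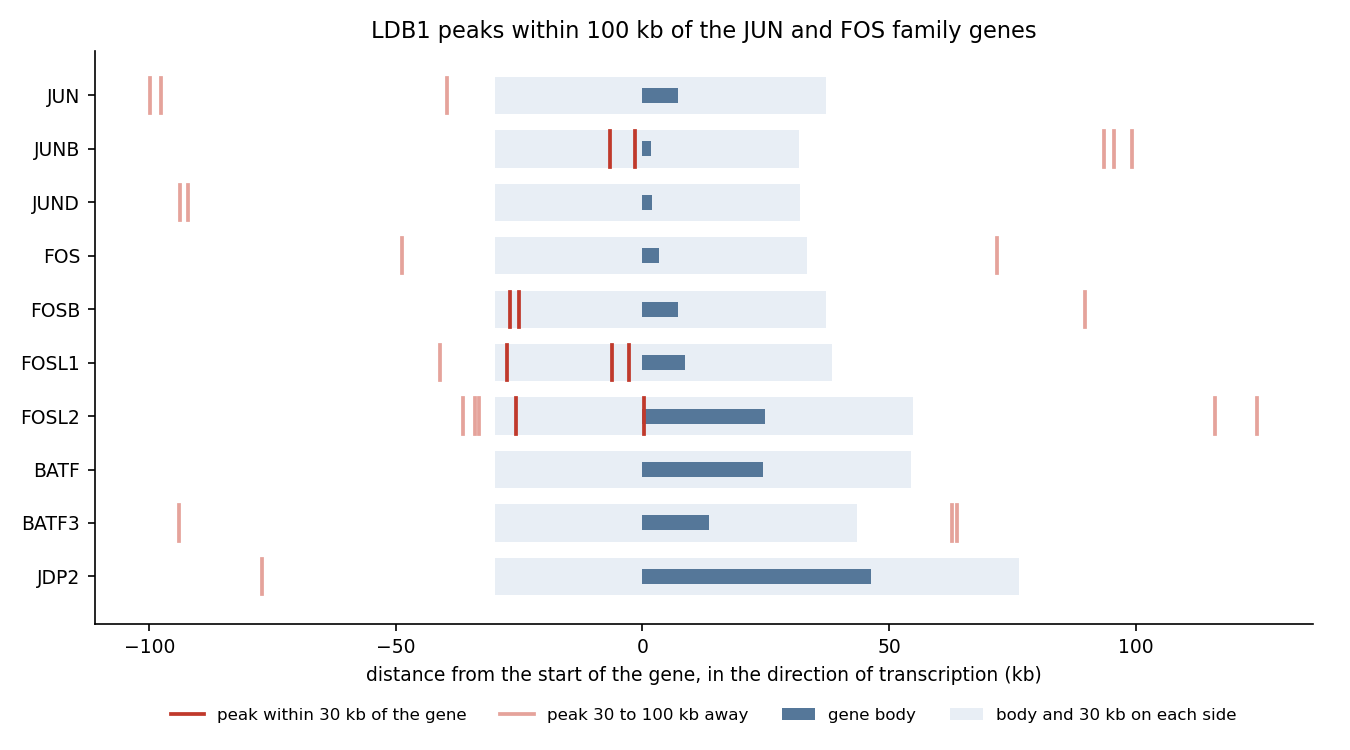
Each row is 1 gene, drawn in the direction of transcription with its start at 0 (x axis, kb). Dark bars are gene bodies, pale bars the body with 30 kb on each side, dark red lines the midpoints of peaks in that window and light red lines those of peaks up to 100 kb from the gene. The 9 dark red lines stand upstream of JUNB, FOSB, FOSL1 and FOSL2 or, once, at the start of FOSL2, and the windows of the other 6 genes are empty.

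To show the DNA under these peaks, the central 200 bp of 5 of them are given 5′ to 3′ on the forward strand of hg38. Capitals mark a GATA motif or a CArG box, the core of the serum response element, on either strand. The GATA motif was read as AGATAA or, with another last base, as AGATAG, and with T in place of the leading base as TGATAA or, again with the other last base, as TGATAG. The first 3 are the longest peaks of JUNB, FOSB and FOSL2, and the last 2 were added after their motifs had been seen.
JUNB, 1959 bp peak, chr19:12784746-12784945: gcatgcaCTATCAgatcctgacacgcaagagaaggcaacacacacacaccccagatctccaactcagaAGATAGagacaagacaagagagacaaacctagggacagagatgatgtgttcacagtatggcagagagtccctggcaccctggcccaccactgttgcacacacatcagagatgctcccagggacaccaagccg
FOSB, 321 bp peak, chr19:45441089-45441288: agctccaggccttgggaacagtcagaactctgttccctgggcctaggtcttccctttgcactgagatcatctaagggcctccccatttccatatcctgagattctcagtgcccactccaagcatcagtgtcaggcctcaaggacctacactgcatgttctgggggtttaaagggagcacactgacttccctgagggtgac
FOSL2, 794 bp peak, chr2:28366692-28366891: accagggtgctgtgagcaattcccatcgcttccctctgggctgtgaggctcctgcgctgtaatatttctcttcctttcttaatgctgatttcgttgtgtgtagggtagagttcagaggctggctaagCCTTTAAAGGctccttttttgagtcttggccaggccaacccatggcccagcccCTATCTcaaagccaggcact
JUNB, 550 bp peak, chr19:12789906-12790105: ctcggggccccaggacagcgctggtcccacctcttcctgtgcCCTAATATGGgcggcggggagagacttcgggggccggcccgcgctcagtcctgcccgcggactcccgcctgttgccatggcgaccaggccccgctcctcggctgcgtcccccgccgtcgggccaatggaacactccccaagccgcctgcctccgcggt
FOSB, 259 bp peak, chr19:45442902-45443101: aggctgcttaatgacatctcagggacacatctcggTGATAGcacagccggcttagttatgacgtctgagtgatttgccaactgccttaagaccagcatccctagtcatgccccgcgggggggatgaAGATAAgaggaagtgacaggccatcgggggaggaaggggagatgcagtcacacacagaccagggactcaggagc

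JUNB (ENSG00000171223.6, chr19:12791486-12793315, plus strand) is a gene of 1 exon whose protein is the JUN family member known for restraining myeloid proliferation. It had the longest peak of the set. This peak, chr19:12783866-12785824, was 1959 bp long and its midpoint lay 6641 bp upstream of the gene's transcription start site (TSS). Only 164 of the 11046 peaks were longer. The midpoint fell in exon 1 of the lncRNA ENSG00000267212, 256 bp from its TSS, and in an intron of the longer transcripts of HOOK2, a gene on the opposite strand whose annotated body also runs across JUNB. Among protein-coding genes the nearest TSS was one of HOOK2, at 6388 bp, and that of JUNB was farther. The second peak, chr19:12789731-12790280 (550 bp), had its midpoint 1481 bp upstream of the JUNB TSS, and no other annotated TSS was nearer. It ended 1205 bp before the gene, and its bases were 76% G or C with 57 CpG sites.

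FOSL1 (ENSG00000175592.9, chr11:65892049-65900573, minus strand) encodes FRA-1, a FOS protein without the strong activation domain of FOS itself. Its 3 peaks were all upstream and intergenic. The nearest, chr11:65902988-65903509 (522 bp), had its midpoint 2675 bp from the annotated start of the gene. The next, chr11:65906308-65907060 (753 bp), lay 6111 bp upstream, and the nearest TSS of both was that of FOSL1. The third, chr11:65927834-65928219 (386 bp), lay 27453 bp upstream and was nearer to DRAP1, whose TSS was 6974 bp away.

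FOSL2 (ENSG00000075426.12, chr2:28392448-28417317, plus strand) encodes FRA-2. It was the only gene of the 10 with a peak in its body, where 16.5% of protein-coding genes had one. That peak, chr2:28392557-28392821, was short (265 bp) and lay just inside the annotated start of the gene. Its midpoint lay 169 bp upstream of the TSS of the canonical transcript, within an intron of another FOSL2 transcript and intron 1 of the antisense lncRNA FOSL2-AS1. CUT&Tag does not tell which strand a peak belongs to. The other peak, chr2:28366395-28367188 (794 bp), was intergenic and 25657 bp upstream of the gene start, and 3 further peaks stood just outside the window, 32793, 33755 and 35228 bp from the gene. The farthest of these was 2180 bp long, and only 115 peaks of the list were longer.

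FOSB (ENSG00000125740.15, chr19:45467995-45475179, plus strand) encodes a FOS protein that is induced more slowly and persists longer than FOS in some of its forms. Both of its peaks lay near the outer end of the window. The peak chr19:45442872-45443130 (259 bp) was 24864 bp from the gene and the peak chr19:45441028-45441348 (321 bp) was 26646 bp from it. Both midpoints fell in introns of non-canonical transcripts of ERCC1, a DNA repair gene on the opposite strand, and the nearest TSS was that of MIR6088, at 6347 and 4534 bp. The peaks at FOSB were thus closer to the starts of other genes than to FOSB.

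To see how these peaks stood among all the peaks of the library, their lengths were compared. The shortest was 259 bp, the median 522 bp and the longest 1959 bp, where the median of all peaks was 451 bp with quartiles of 314 and 666 bp. Of the 9 peaks, 5 were longer than the median of all peaks. The central 31 bases of each of the 9 peaks occurred once in hg38, as they did in 89.3% of all peaks. Within 3 kb of an annotated TSS of the gene itself lay 3 of the 9, 1 each at JUNB, FOSL1 and FOSL2. Within 1 kb there was 1. No share of all peaks was set beside these counts, so they cannot be called high or low.

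**Figure D2:**
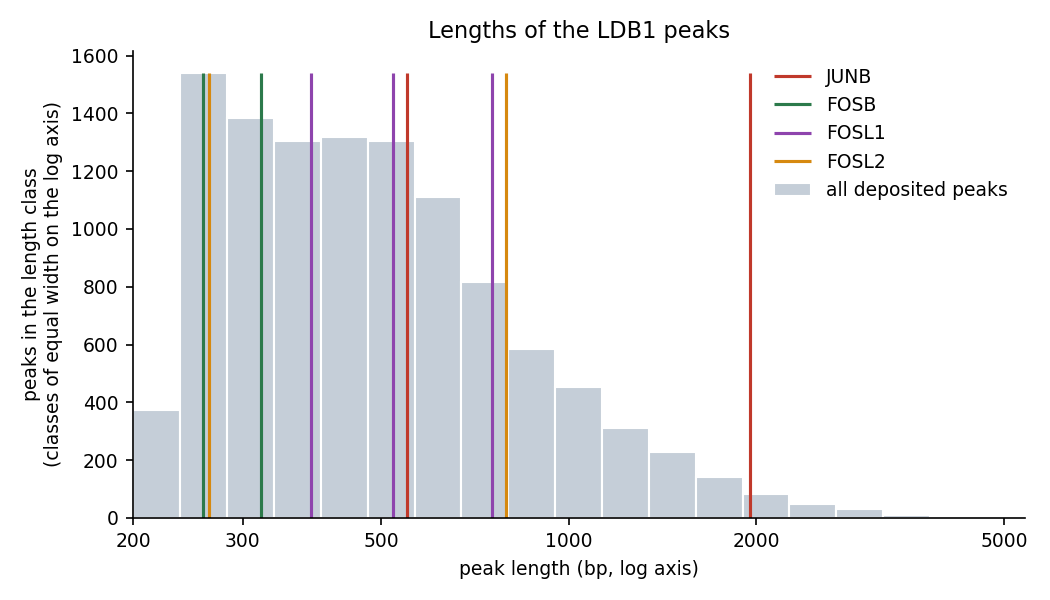
Bars give the number of deposited LDB1 peaks (y axis) by length in bp (x axis, log scale, classes of equal width on that scale). Coloured lines mark the 9 peaks of JUNB, FOSB, FOSL1 and FOSL2. The JUNB peak of 1959 bp stands in the tail of the distribution, while the FOSB peaks of 259 and 321 bp and the FOSL2 promoter peak of 265 bp stand at its short end.

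All of the peaks lay at or before the start of the gene. Of the 9 midpoints, 8 were upstream and 1 was 241 bp inside FOSL2, and none lay downstream of the gene body. The nearest downstream peak was at least 49058 bp away for each of the 10 genes. Leaving out peaks within the body, the nearest upstream peak was closer than the nearest downstream peak in 9 of the 10 genes, the exception being BATF3, compared with 49.9% of 19970 protein-coding genes. Within 30 kb, 4 genes had an upstream and 0 a downstream peak, where the shares of protein-coding genes were 16.2% and 16.3%. This pattern was seen only after the positions had been listed, it was not tested, and FOS, JDP2 and BATF share neighbouring peaks.

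The 6 genes without a peak differed in how far the nearest one was. The peak just inside the limit of 30 kb was the FOSL1 peak 27260 bp away and the one just outside, as the nearest peak of its gene, belonged to JUN. JUN (ENSG00000177606.9, chr1:58776845-58784048, minus strand) had its nearest peak 39486 bp upstream, chr1:58823535-58824000 (466 bp), in intron 1 of the lncRNA LINC01135, and 2 more at 97368 and 99526 bp. Downstream the next peak was 3499164 bp away. The stretch without a peak that holds JUN was 3545854 bp long, and 140 of 11023 gaps between neighbouring peaks were longer (1.27%). This share counts gaps and not genes, and long gaps hold more of the genome than their number shows. By distance to the nearest peak, 40.8% of protein-coding genes were nearer to one than JUN.

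JUND (ENSG00000130522.6, chr19:18279694-18281622, minus strand), the JUN protein that is expressed in most resting cells, had its nearest peak 90999 bp upstream. This was a peak of 2167 bp, chr19:18372622-18374788, whose midpoint was 1026 bp from the TSS of GDF15. BATF3 (ENSG00000123685.9, chr1:212686417-212699840, minus strand), known for its role in dendritic cells, had its nearest peak 49058 bp downstream, chr1:212636768-212637358 (591 bp). A second peak of 871 bp stood 50017 bp away on the same side.

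FOS, JDP2 and BATF are neighbours on chromosome 14 and were considered together. FOS (ENSG00000170345.10) spans chr14:75278826-75282230, JDP2 (ENSG00000140044.13) chr14:75427716-75474111 and BATF (ENSG00000156127.8) chr14:75522455-75546993, all on the plus strand. From the first base of FOS to the last of BATF there were 268168 bp, with these 3 protein-coding genes and 1 peak. That peak, chr14:75350475-75350802 (328 bp), lay between FOS and JDP2, 68244 bp downstream of FOS and 76913 bp upstream of JDP2. It was also the nearest peak of BATF, at 171652 bp. FOS had a nearer peak on its upstream side, 48593 bp away (chr14:75229744-75230232, 489 bp). The next peak after BATF was 285846 bp downstream, in TTLL5, so JDP2 and BATF lay in 1 stretch of 482037 bp without a peak. Of all gaps between neighbouring peaks 11.4% were longer than this stretch, and the median gap was 30515 bp. This share too counts gaps and not genes. Of protein-coding genes, 52.6% were nearer to a peak than JDP2 and 69.6% were nearer than BATF.

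The result depended on the size of the window. Within 3 kb of the gene, 19.7% of all protein-coding genes and 24.9% of those on chromosome 19 had a peak. Of the 10 genes, 3 had one, JUNB, FOSL1 and FOSL2 (30%, Wilson interval 10.8 to 60.3%). Within 100 kb, 9 of the 10 did (90%, Wilson interval 59.6 to 98.2%), compared with 58.3% of all protein-coding genes and 75.5% of those on chromosome 19. BATF was the only gene without a peak at that distance. The interval at 100 kb treats the 10 genes as independent, but JDP2 counts here only through a peak that also counts for FOS. Of the windows counted, this one differed most from the background, and the difference was not tested. The median distance from the 10 genes to the nearest peak was 44040 bp and that of all protein-coding genes 66873 bp, and 7 of the 10 genes were nearer than this.

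**Figure D3:**
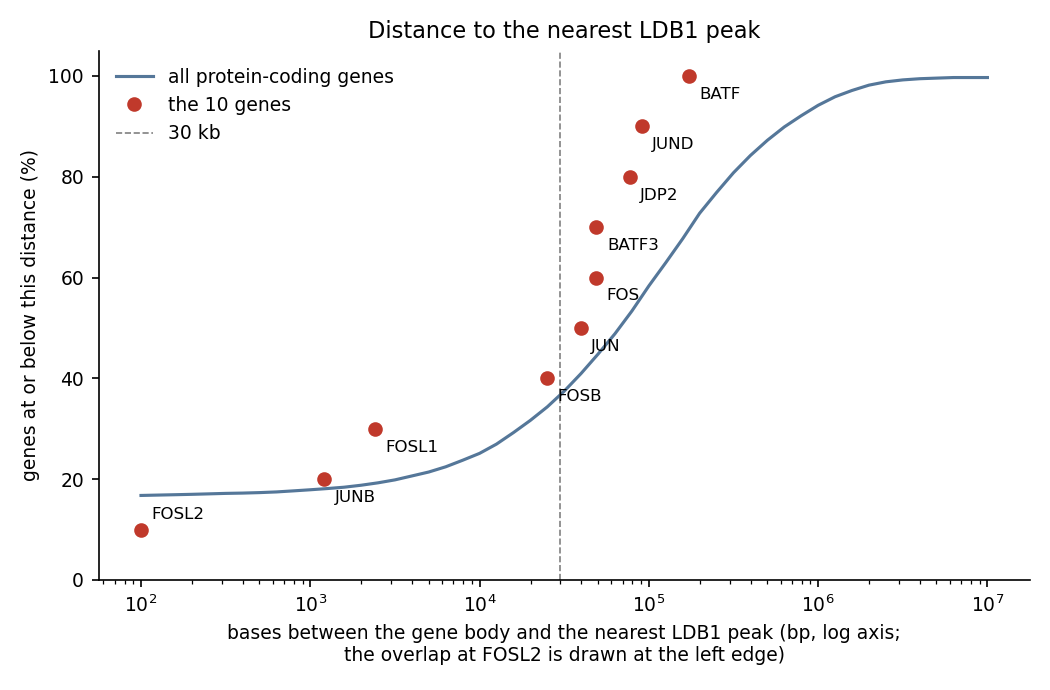
The curve gives the percentage of protein-coding genes (y axis) whose nearest LDB1 peak is at or within the distance on the x axis (bp, log scale), and the dots give the same for the 10 genes in order of distance. The dashed line marks 30 kb. The dots stand above the curve from JUNB at 1205 bp onwards, and BATF is last at 171652 bp.

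To ask which motifs the peaks carried, the 200 bp around each midpoint and then whole peaks were searched on both strands. The central 200 bp of the 9 peaks held no AP-1 motif (TGACTCA), while 9.50% of all peaks and 3.59% of flanking windows 1000 bp to either side had one. A count of 0 in 9 peaks allows a share of up to 33.3%, so a difference from all peaks was not detectable with so few peaks. In whole peaks there was a single match, in the FOSL1 peak 6111 bp upstream of the gene, and 19.2% of all whole peaks had one. It lay on the minus strand 113 bp from the midpoint, and is shown here in capitals with 15 bases on either side.
FOSL1 AP-1 match, chr11:65906779-65906815: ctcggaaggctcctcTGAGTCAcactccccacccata

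The cyclic AMP response element (TGACGTCA) occurred at 0 of the 9 peaks, and 0.226% of the central windows of all peaks had it. The form of the AP-1 motif bound by NF-E2, TGACTCA followed by GCA, was also absent from the 9 peaks. It was found in 0.543% of the central windows of all peaks.

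Of the 9 peaks, 4 carried the GATA motif within the central 200 bp, and the shares were 47.1% in all peaks and 27.5% in the flanking windows. These were the 1959 bp peak of JUNB, the 259 bp peak of FOSB, the 753 bp peak of FOSL1 and the 794 bp peak of FOSL2, 1 peak for each gene. In whole peaks, 5 of the 9 had the motif, and 71.4% of all peaks did. The JUNB peak of 1959 bp held 5 matches and the FOSL2 peak of 794 bp held 4, of which those at 109 and 113 bp from the midpoint lay on opposite strands and shared a base. There were 14 matches in all, or 2.41 per kb of peak, compared with 2.64 per kb over all peaks. None of the 9 peaks held the composite of CTG followed after 7 or 8 bases by a GATA motif, which contains the GATA motif. It was found in the central 200 bp of 11.2% and in the full length of 22.4% of all peaks. A count of 0 in 9 peaks allows a share of up to 33.3%, so a difference from all peaks was not detectable.

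The CArG box is the binding sequence of SRF, the factor through which growth signals induce FOS and JUNB. Of the 9 peaks, 2 carried it within the central 200 bp, against 1.12% of all peaks and 1.00% of the flanking windows. In the 550 bp peak of JUNB it read CCTAATATGG, 53 bp from the midpoint. In the 794 bp peak of FOSL2 it read CCTTTAAAGG, 33 bp from the midpoint. Both are in capitals in the sequences above. With 2 peaks this is a description of single sequences, and whether SRF binds there was not measured.

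The E-box of TAL1 (CAGCTG or CAGATG) was found in the central window of 1 of the 9 peaks and in 5 whole peaks, including each of the 3 peaks of FOSL1. In all peaks the shares were 33.8% and 60.0%. The RUNX motif (TGTGGT or TGCGGT) was absent from the central windows and present in 3 whole peaks, at JUNB, FOSB and FOSL2, where 20.5% of all central windows and 43.0% of all whole peaks had it. The motifs of ETS (CCGGAA), KLF (GGGTGTGG or GGGCGTGG) and CEBP (TTGCNNCAA) were in none of the 9 peaks, and in 8.71%, 14.9% and 3.99% of all whole peaks. For each motif with a count of 0, including RUNX in the central windows, the limit of 33.3% lies above the share in all peaks. The 321 bp peak of FOSB and the 265 bp peak of FOSL2 held none of the motifs searched.

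**Figure D4:**
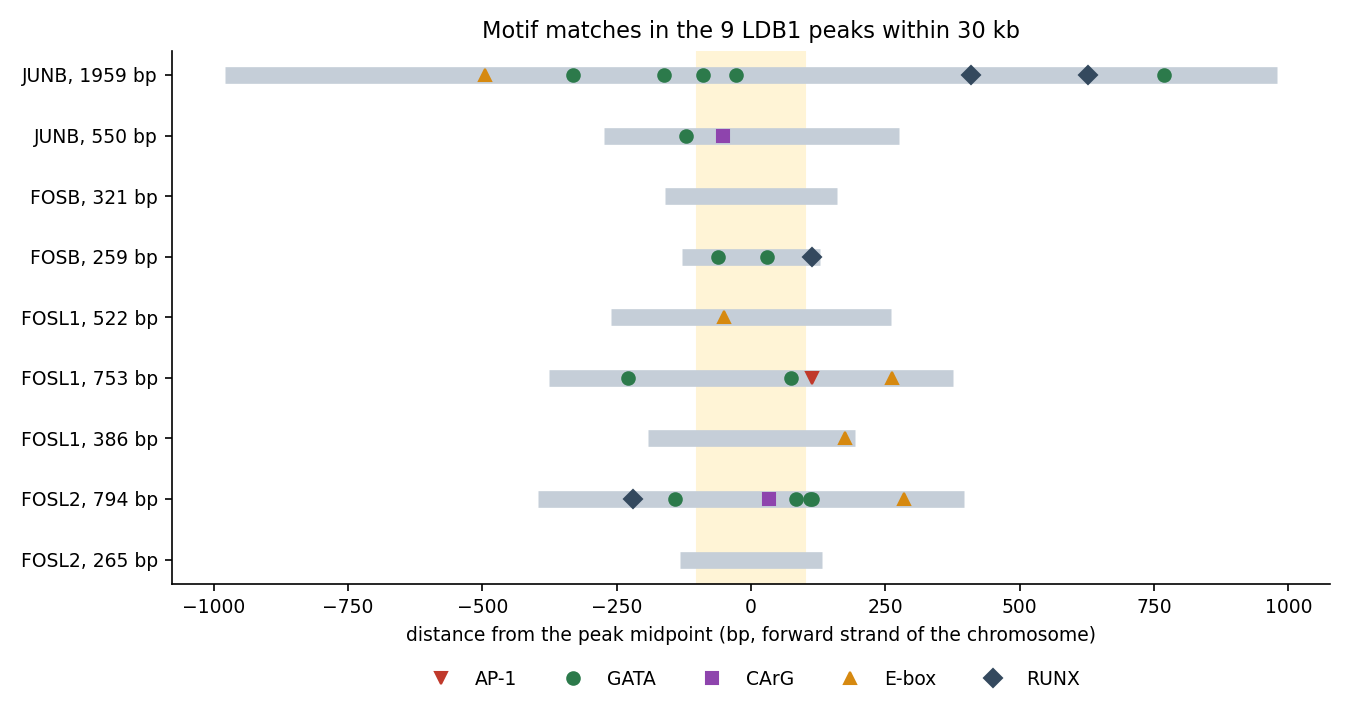
Each grey bar is 1 of the 9 peaks, drawn to scale around its midpoint (x axis, bp on the forward strand), and symbols mark AP-1, GATA, CArG, E-box and RUNX matches. The shaded band is the central 200 bp. The only AP-1 match stands outside the band at 113 bp in the FOSL1 peak of 753 bp, and the CArG boxes of JUNB and FOSL2 stand inside it.

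Among the 29 different peaks within 100 kb of the 10 genes, the central 200 bp had a GATA motif in 14 (48.3%), an AP-1 motif in 2 (6.90%) and the composite in 0. The shares in all peaks were 47.1%, 9.5% and 11.2%. A count of 0 in 29 allows a share of up to 10.3%, which is close to that of all peaks, and the difference was not tested. Both peaks with AP-1 lay beyond 30 kb, 97368 bp upstream of JUN in LINC01135 and 93916 bp upstream of BATF3 in intron 1 of TATDN3. In whole peaks the composite was found in 8 of the 29 and AP-1 in 7, where 22.4% and 19.2% of all whole peaks had them. None of these 8 peaks held a whole composite within the central 200 bp, and none of the 8 was within 30 kb of a gene of the family.

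To compare the peaks with promoters, the RefSeq promoter windows on GRCh38.p14 (250 bases before to 50 after the start) were used, which were matched for 8 of the 10 genes (all but FOSL1 and BATF3). Only the window of FOSL2 was overlapped by a peak, and 3.19% of 15315 protein-coding genes had such an overlap. The peak covered 214 bases of the window, which are in capitals in the 250 bases upstream of the start given here.
FOSL2 promoter, chr2:28392608-28392857: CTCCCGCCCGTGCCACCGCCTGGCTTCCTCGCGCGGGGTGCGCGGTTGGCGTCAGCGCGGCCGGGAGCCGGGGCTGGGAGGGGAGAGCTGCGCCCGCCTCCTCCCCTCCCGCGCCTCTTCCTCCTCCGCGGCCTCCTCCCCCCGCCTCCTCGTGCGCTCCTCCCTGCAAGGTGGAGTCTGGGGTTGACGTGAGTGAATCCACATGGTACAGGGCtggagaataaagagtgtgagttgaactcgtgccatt

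The peak itself was 75.8% G or C and held 31 CpG sites in 265 bp. The promoter window of FOSL2 also held an AP-1 motif, and it was the only one of the 8 genes with this motif there, where 4.03% of 21548 promoter windows had it. Only the exact letters TGACTCA were counted as AP-1, so variant sites were missed. The match began 4 bp after the RefSeq start and 41 bp beyond the end of the peak, so it was not part of the peak. It is in capitals here.
FOSL2 AP-1 match after the start, chr2:28392851-28392879: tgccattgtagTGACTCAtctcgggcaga

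Finally, the genes around AP-1 were counted under the same rule of 30 kb. Of 10 genes for bZIP partners of AP-1, 2 had a peak, ATF3 with 2 peaks and MAFG with 1, and their median distance to the nearest peak was 71842 bp. Of 14 kinases upstream of AP-1, 7 had a peak, among them MAPK14 (p38 alpha) with 8 peaks, MAPK8 (JNK1) with 4 and MAP2K3 with 3. The bodies of 10 of these kinase genes were longer than any in the JUN and FOS family, and a longer body gives a wider window. Of 6 serum response factors, 2 had a peak, ELK1 and MRTFA with 3 peaks each, and SRF had none. Bodies longer than any in the JUN and FOS family were also found in 3 bZIP partners, ATF3 included. The same was true of 3 serum response factors, MRTFA included. Of 12 other immediate early genes, 7 had a peak, among them ZFP36 with 3 and DUSP1, IER5 and MCL1 with 2 each, and EGR1 and EGR2 had none. The share in these lists was 20%, 50%, 33.3% and 58.3% in this order, around the background of 36.7% given above, and none of the lists was tested against it.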

How the data were processed

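NB4 cells were profiled by CUT&Tag with 1 LDB1 and 1 IgG library. Per the methods of the study and the submitters' processing notes, reads were aligned to hg38 with Bowtie2 2.4.4 and peaks were found with MACS3 3.0 on paired-end fragments at a q limit of 0.01, with the signal scaled to sequencing depth (SPMR). Whether IgG served as the control, and how duplicates and reads with several alignments were treated, is not given in the sources used here. The authors deposited, for every peak, its first and last base and its length (bp). They hold no counts, so depth per sample and error between libraries are unknown. The IgG library was not used.

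Peaks were overlapped with GENCODE release 44 gene bodies extended by 30 kb. Motifs were searched in 200 bp around each peak midpoint, in windows 1000 bp to either side and in whole peaks. A peak was near a TSS within 3 kb. Copies of the central 31 bases were counted on both strands of hg38. Intervals are Wilson 95% intervals, limits at 0 take 3 counts, and both cover counting error only. All 10 genes are named with every peak, and from each further list up to 4 genes with the most peaks. A kinase and a peak sequence that these rules select are not reported here. EGR1, EGR2 and SRF were named after their values were seen. The genes and lists were chosen with earlier results of these data known. No statistical test was made. Window size, peak set, overlap rule, motif window and TSS rule were varied. The counting was tested on simulated data. The tools were pysam 0.24.0, matplotlib 3.10.9, pandas 2.3.3, numpy 2.4.6 and SciPy 1.17.1 under Python 3.11.15.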

Additional observations from a re-analysis of the deposited data

How the results depend on the processing

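The number of genes of the family with a peak (4) was 1 with gene bodies alone and 9 with 100 kb on each side. The number of peaks (9) was 1 with gene bodies alone, 3 with 3 kb, 5 with 10 kb and 29 with 100 kb, and 5 when only the 5523 longest peaks were kept. The share of protein-coding genes with a peak (36.7%) was 16.5%, 19.7%, 25.1% and 58.3% with gene bodies, 3 kb, 10 kb and 100 kb, 25.3% with those longest peaks and 34.4% with peaks whose central sequence occurs once. A wider window or more peaks raises these counts by construction. The AP-1 motif was found in 1 peak when whole peaks were searched and the GATA motif in 2 peaks within 100 bp around the midpoint. Near a TSS of the gene lay 1 peak when the limit was 1 kb. In the other 13 of 29 alternatives, all of them counts, the value stayed within 1.5 times the one given. The 6 shares of protein-coding genes are listed because they fell outside the Wilson interval of 36.0 to 37.3%, and not all of them moved by 1.5 times. A stricter peak score was not run, because the list has no such column. No paired analysis was possible because the LDB1 and IgG groups hold a single library apiece. With 1 library and no peak heights, neither the spread between cultures nor the strength of a peak was measured.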

Other observations

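Among the promoter windows of the 8 matched genes, the cyclic AMP response element was found at JUND, where 2.29% of all windows had it. The GATA motif was found at JUN and BATF (19.8% of all windows), the E-box at FOS (27.6%), RUNX at FOS and BATF (19%), ETS at FOSB (21.3%) and KLF at JDP2 (9.52%). The CArG box, the composite, the NF-E2 form and the CEBP motif were in none of the 8. The shares count windows and not genes, and JDP2 had several windows, of which not all held the KLF motif. All promoter windows reach 250 bases before the start, so a motif farther upstream was not counted. Over all peaks of the library, 60 of the 1049 central windows with an AP-1 motif had the NF-E2 form (5.72%, Wilson interval 4.47 to 7.29%), as did 24 of 794 flanking windows with AP-1 (3.02%, 2.04 to 4.46%). A match is a run of letters, and no binding of these factors was measured.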
